A study of Arabidopsis thaliana with 36 samples.

Results

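The response to warmth of the Arabidopsis mutant hda9-1 was measured in seedlings 7 days old, as the difference between libraries from plants grown at 27 °C and libraries from plants grown at 22 °C. The comparison uses 6 of the 36 libraries of the series, 3 at each temperature, and takes in every gene with a normalised count of at least 10 in at least 3 of these 6 libraries, which was 20664 of the 33540 genes in the files. All plants were Arabidopsis thaliana. hda9-1 is a mutant of HDA9, the gene of a histone deacetylase. The wild type was Col-0 (WT), and the third genotype was pif4-2, a mutant of PIF4. Plants of every group grew on MS-agar plates under short days (light for 8 h, darkness for 16 h). The temperature was 22 or 27 °C. Whole seedlings 2 or 7 days old were collected at dawn. Each library pools RNA of 3 batches of seedlings, so it is an average over many plants. Per the labels genotype, temperature and age are the differences between the groups, and every group has n = 3.

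Histone deacetylases take acetyl groups off histone tails, and HDA9 is one of the members of this family in Arabidopsis that is known from work on warm-temperature growth, flowering, germination and leaf senescence. A few degrees of warming below the level of heat stress makes Arabidopsis stems and leaf stalks longer, a process called thermomorphogenesis, in which the transcription factor PIF4 switches on auxin genes. Temperature is read, among other routes, by phytochrome B, by the evening complex of the circadian clock (ELF3, ELF4 and LUX) and by heat shock factors. Whole seedlings mix leaves, stem and root, so a lower transcript level can come from fewer cells of a type or from less RNA per cell, and these cannot be told apart here.

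Reads in genes numbered 28455368 to 55313682 in the 6 libraries, with a median of 49244479. All 36 libraries of the series held 21906850 to 67795235. Values are read counts that the authors divided by 1 size factor per library, called normalised counts below. The log2 difference is the mean at 27 °C minus the mean at 22 °C on the scale log2(normalised count + 1), which understates the change of genes with few reads. A gene is called higher or lower at 27 °C where its limma p, adjusted over all 20664 genes, is under 0.05. In a principal component analysis of the 6 libraries the first component held 82.35% of the variance and parted the temperatures. The second held 6.765% and parted warm replicate 2 (22.74) from warm replicate 3 (-22.13), with warm replicate 1 between them (-0.1405). In the 7-day libraries of the series, pif4-2 replicate 3 at 22 °C stood apart from its group mates, and it enters only the comparisons with pif4-2 and the common estimate of the spread.

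Warmth changed most of the transcriptome of hda9-1. Of the 20664 genes 12166 were called (58.9%), 5807 of them higher (28.1%) and 6359 lower (30.8%) at 27 °C. Changes of at least 2-fold were seen in 885 called genes that rose and 1248 that fell, and of at least 4-fold in 149 and 219. The median over all genes was -0.02 on the log2 scale. The values of the 3 warm libraries and the 3 cool libraries did not overlap for 14375 genes (69.6%). Because most genes are called, the count of a gene group is read below against 28.1% higher and 30.8% lower and beside the group's median. Of the genes tested, 120 reached the minimum of 10 in the 27 °C libraries alone and 159 in the 22 °C libraries alone, and such genes could hardly fail to differ. They include 11 genes of the lists used below.

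**Figure D1:**
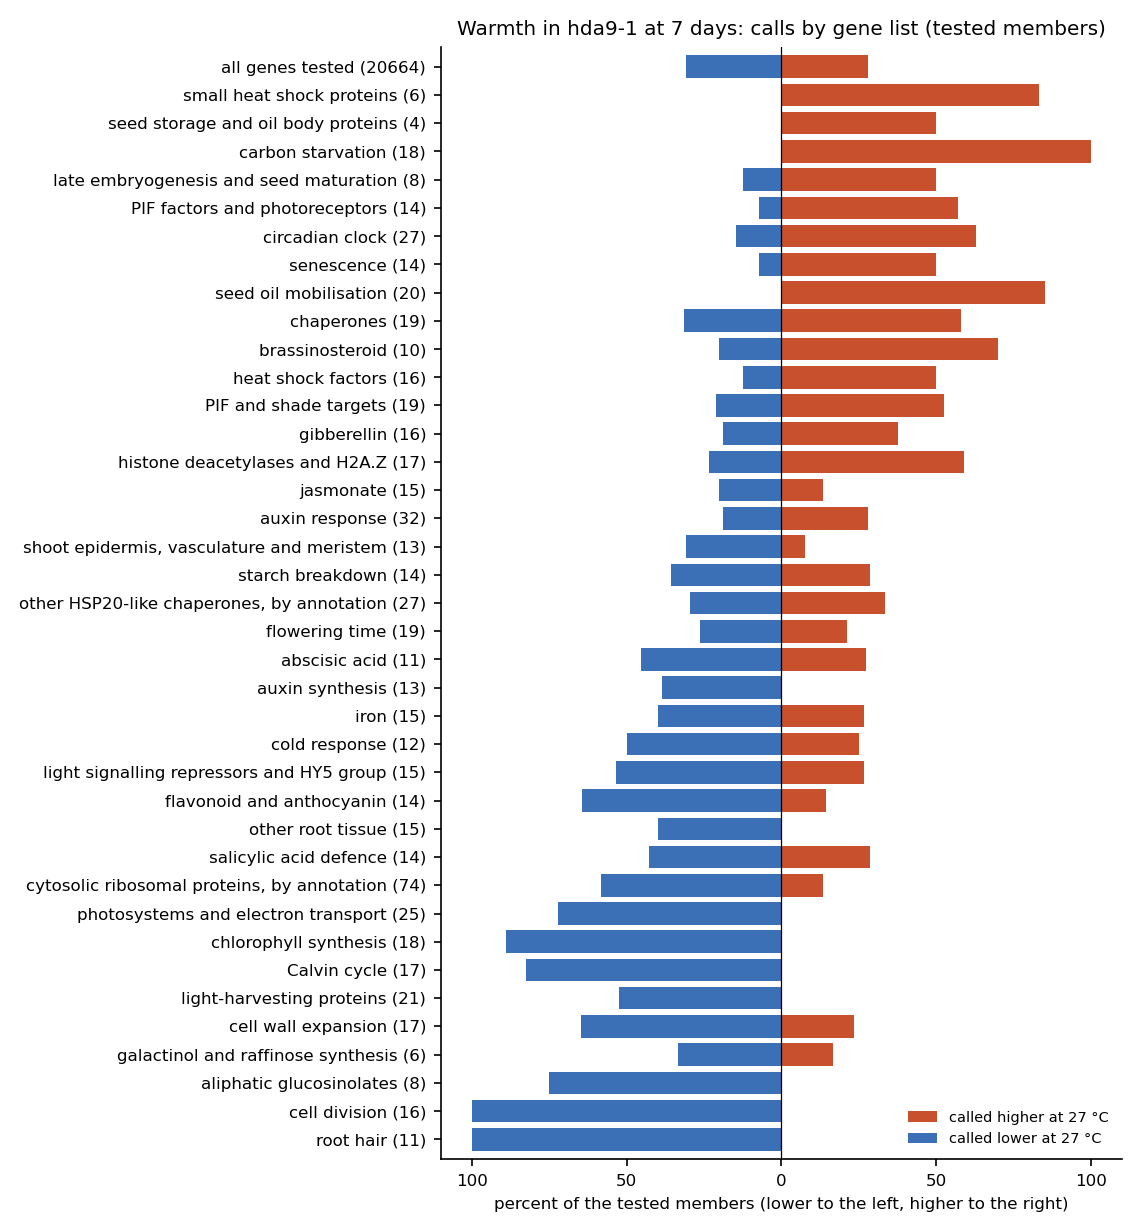
Share of tested members called higher (right of 0) or lower (left of 0) at 27 °C in hda9-1 aged 7 days, for each gene list, in percent of the tested members, whose number follows each name. The top bar gives all 20664 genes. All 18 carbon starvation genes were called higher, and all 16 cell division and all 11 root hair genes were called lower.

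HDA9 itself checks the label. Its normalised counts were 68.7, 55.5 and 47.6 at 22 °C and 74.7, 73.8 and 71.7 at 27 °C, against 510, 508 and 510 at 22 °C and 488, 483 and 474 at 27 °C in WT of the same age. All 6 hda9-1 libraries lay far below all 6 WT libraries. Within hda9-1 the residual signal was slightly higher at 27 °C (log2 difference 0.37, SE 0.14, limma adjusted p = 0.028), but the gene was not called by edgeR (adjusted p = 0.094) or DESeq2 (0.073), nor by limma with only the compared groups in the fit (0.061), without hda9-1 22 °C replicate 2 (adjusted p = 0.068), hda9-1 22 °C replicate 3 (0.16), hda9-1 27 °C replicate 1 (0.067) or hda9-1 27 °C replicate 2 (0.06). HDA9 has close relatives in the genome, HDA10 and HDA17, so part of the residual count could not be assigned with certainty. The labelled tissue was checked with marker lists. Of 16 root markers outside root hairs 15 passed the minimum, and of 15 markers of shoot epidermis, vasculature and meristem 13 did, so markers of both shoot and root were detected.

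Of the genes that set up the growth response, PIF4, which encodes the growth-promoting bHLH factor, stood at 2081, 2188 and 2188 at 22 °C and 5230, 6160 and 5609 at 27 °C. The warm libraries were all higher, with a 2.63-fold rise (log2 difference 1.39, SE 0.09, limma adjusted p = 6.9e-10). Of 3 auxin genes known to act downstream of PIF4 only 1 was called in hda9-1. The response differed from that of WT for 0 of 13 tested auxin synthesis genes and 0 of 32 tested auxin response genes. YUC8, an auxin synthesis gene and a known PIF4 target, stood at 266, 318 and 278 at 22 °C and 346, 401 and 331 at 27 °C. Its warm values lay above its cool values but the difference missed the threshold (log2 difference 0.32, SE 0.16, limma adjusted p = 0.097). It was called by edgeR (adjusted p = 0.035), by DESeq2 (0.014) and by limma with only the compared groups in the fit (0.014) or without pif4-2 22 °C replicate 3 (adjusted p = 0.0041). IAA19, an auxin-responsive repressor gene, stood at 237, 288 and 354 at 22 °C and 289, 275 and 323 at 27 °C and its groups overlapped (log2 difference 0.03, SE 0.16, limma adjusted p = 0.89). IAA29, of the same family, stood at 469, 562 and 495 at 22 °C and 612, 641 and 603 at 27 °C and was called higher by a small step (log2 difference 0.29, SE 0.10, limma adjusted p = 0.022). That call was lost without hda9-1 22 °C replicate 1 (adjusted p = 0.099), hda9-1 22 °C replicate 3 (0.063) or hda9-1 27 °C replicate 2 (0.068).

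Small heat shock proteins bind unfolding proteins and keep them soluble, and their genes are classical targets of heat shock factors. Of 7 listed members 6 were tested, and 5 were higher and 0 lower, with a median log2 difference of 3.08. HSP17.6II, HSP22 and HSP23.6 reached the minimum only in the warm libraries, so this count is a description. HSP17.4, a cytosolic member, stood at 16.1, 11.8 and 22.3 at 22 °C and 245, 363 and 328 at 27 °C. Every warm library was above every cool one by a wide margin, an 18-fold rise (log2 difference 4.17, SE 0.22, limma adjusted p = 1e-10). AT1G53540, another cytosolic small heat shock gene that reached the minimum only in the warm libraries, had 6.25, 3.54 and 4.61 at 22 °C and 109, 117 and 129 at 27 °C. Few reads stand behind the cool values, so the size depends on the pseudocount: the log2 difference was 4.39 (SE 0.26) and 3.31 with a pseudocount of 8. HSP17.6A stood at 19.6, 14.2 and 23 at 22 °C and 136, 158 and 186 at 27 °C, and its groups did not overlap (log2 difference 3.03, SE 0.25, limma adjusted p = 1.8e-08). HSP23.6, whose product is mitochondrial, was at 0, 0 and 3.07 at 22 °C and 16.9, 10.1 and 14.3 at 27 °C, close to no reads in the cool libraries. HSP18.2 was the member that was not called: its values were 32.1, 27.2 and 44.5 at 22 °C and 33.9, 27.5 and 26.4 at 27 °C. The summed level of the 6 genes was 58 to 101 normalised counts at 22 °C and 489 to 629 at 27 °C. These genes are alike in sequence, so single values may include reads of a relative.

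The promoter of HSP17.4 is shown because it is the gene of the small heat shock list whose window holds the classical binding sequence of heat shock factors. The 250 bases before the gene start were read 5′ to 3′ from RefSeq's TAIR10.1 assembly, at chr3:16984868-16985117 on the minus strand. Capitals mark the 2 matches to the heat shock element searched, 3 alternating units of GAA and TTC with 2 free bases between neighbours, starting with either unit. The matches start 99 and 18 bases before the gene start.
HSP17.4: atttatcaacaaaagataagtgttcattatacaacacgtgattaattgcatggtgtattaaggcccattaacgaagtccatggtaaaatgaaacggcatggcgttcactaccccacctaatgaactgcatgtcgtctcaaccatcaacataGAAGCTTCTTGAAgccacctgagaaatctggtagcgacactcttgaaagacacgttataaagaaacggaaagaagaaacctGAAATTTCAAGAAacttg
A match of these letters describes the sequence and is not evidence of binding. The same element was in 88 of 20552 windows of tested genes (0.428%). Among called genes at least 2-fold higher it was in 13 of 869 windows (1.5%), and among those at least 4-fold higher in 5 of 145 (3.45%). It was in 5 of 1245 windows of genes at least 2-fold lower (0.402%). Of the gene lists, 3 of 16 heat shock factor genes, 1 of 6 small heat shock genes and 0 of 19 chaperone genes held it. It was also in 1 of 6 galactinol and raffinose genes, 1 of 27 clock genes and 1 of 27 other genes annotated as HSP20-like.

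Larger chaperones refold proteins or hold them for partner factors. Of 19 listed genes 11 were higher and 6 lower, with a median of 0.41. HSP90.1, the heat-inducible cytosolic HSP90, stood at 511, 505 and 579 at 22 °C and 3794, 4154 and 5060 at 27 °C. Its warm libraries were 8.1-fold higher and did not overlap the cool ones (log2 difference 3.02, SE 0.15, limma adjusted p = 5.6e-11). ROF2, an FKBP-type co-chaperone of HSP90, stood at 183, 192 and 190 at 22 °C and 691, 737 and 886 at 27 °C (log2 difference 2.02, SE 0.12, limma adjusted p = 3.2e-10). HOP3, which links HSP70 and HSP90, had 677, 648 and 768 at 22 °C and 2532, 2743 and 3026 at 27 °C (log2 difference 1.99, SE 0.10, limma adjusted p = 6.3e-11). MBF1C, a transcriptional coactivator of thermotolerance, and HSA32, a protein that sustains acquired thermotolerance, rose by log2 2.02 and 2.01. All 5 of these genes had separate warm and cool values. On the other side, CPN60B, a subunit of the chloroplast chaperonin that assembles Rubisco, stood at 27651, 26043 and 26100 at 22 °C and 14373, 12215 and 13429 at 27 °C and fell (log2 difference -0.998, SE 0.07, limma adjusted p = 5.8e-09). HSP90.5, the chloroplast HSP90, and BIP3, an endoplasmic reticulum HSP70, were not called (log2 0.11 and 0.20), HSP90.5 except without hda9-1 27 °C replicate 2 (adjusted p = 0.043). BIP3 had few reads, with 3.57, 37.8 and 9.21 at 22 °C and 9.24, 13 and 18.1 at 27 °C. Its plain mean was lower at 27 °C (13.5 against 16.9), so the sign of its difference is not settled. The summed level of the list was lower at 27 °C (131901 to 139783 normalised counts) than at 22 °C (156873 to 162122).

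Heat shock factors bind heat shock elements and drive chaperone genes. Of 16 genes 8 were higher and 2 lower, with a median of 0.36. The count of lower genes was 1 under most alternatives, each cool library or warm replicate 1 or 2 left out among them. HSFA2, a factor that is itself induced by heat, stood at 17.9, 15.35 and 20.7 at 22 °C and 58.5, 75.3 and 68.7 at 27 °C and rose 3.61-fold (log2 difference 1.85, SE 0.23, limma adjusted p = 3e-06). HSFA3, a later-acting member, had 172, 187 and 169 at 22 °C and 516, 521 and 471 at 27 °C (log2 difference 1.51, SE 0.12, limma adjusted p = 7.6e-09). HSFB2A, of the repressor class, rose by log2 1.09. The warm libraries exceeded the cool ones in all 3 of these genes. HSFA1D, one of the master regulators present before heat, stood at 485, 390 and 426 at 22 °C and 436, 424 and 435 at 27 °C (log2 difference -0.00, SE 0.10, limma adjusted p = 1). Among 27 tested genes that the annotation describes as HSP20-like and that are in no other list, 9 were higher and 8 lower with a median of -0.02, near that of all genes. Without cool replicate 1 the count of lower genes was 5. This list, taken from the annotation after the files were seen, includes AT1G53540 above, as well as AT5G51440 (log2 1.88) and AT2G19310 (log2 1.52).

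**Figure D2:**
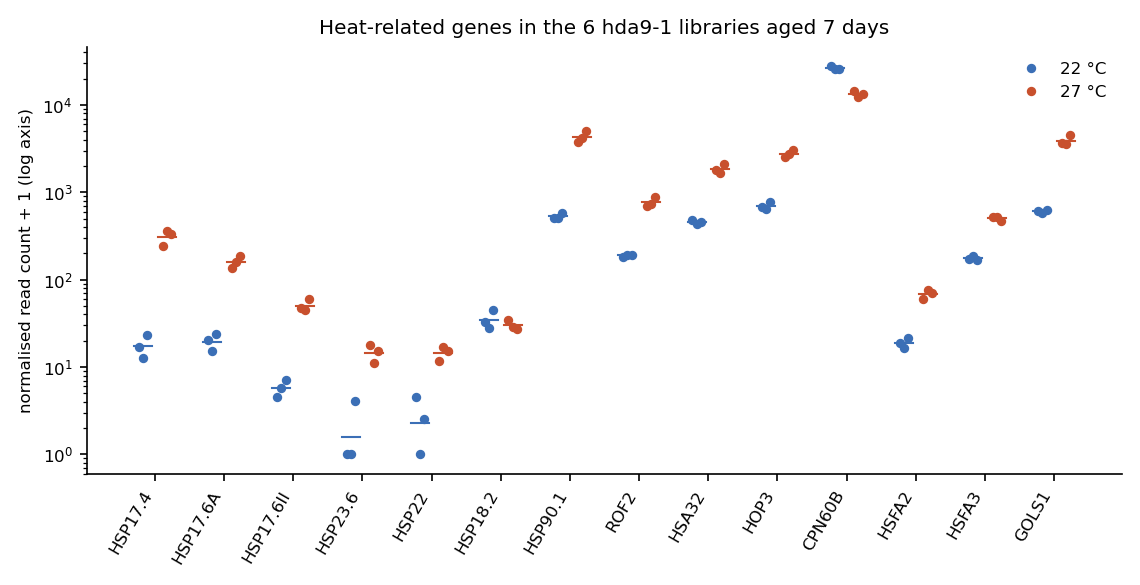
Normalised counts on a log10 axis for small heat shock, chaperone and heat shock factor genes in each of the 6 hda9-1 libraries aged 7 days, with 1 point per library, 1 added to each count and bars at the geometric means of the groups. Every warm value of HSP17.4 and HSP90.1 lies above every cool value.

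Galactinol synthases make the first precursor of the raffinose sugars that build up under stress, and members of the family are known for different triggers. GOLS1, the heat-responsive member, stood at 612, 579 and 630 at 22 °C and 3640, 3614 and 4539 at 27 °C. It rose 6.43-fold with a small spread (log2 difference 2.69, SE 0.09, limma adjusted p = 8.7e-13). GOLS4 stood at 42.8, 28.3 and 51.4 at 22 °C and 4.62, 1.45 and 6.04 at 27 °C, a log2 difference of -3.15. It reached the minimum only in the cool libraries, so it had to differ and its values are a description. RS5, a raffinose synthase, stood at 1284, 1164 and 1262 at 22 °C and 410, 331 and 355 at 27 °C and fell (log2 difference -1.76, SE 0.13, limma adjusted p = 4.3e-09). Of the 6 tested genes 1 was higher and 2, GOLS4 among them, were lower, with 4 lower without warm replicate 2.

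Genes that mark a shortage of carbon were higher without exception. Seedlings in short days live on starch through a long night, and when carbon runs short they switch on genes that break down amino acids and other reserves. All 18 listed genes were higher and none lower, with a median log2 difference of 1.25 against -0.02 for all genes. ASN1, also known as DIN6, encodes an asparagine synthetase induced by darkness and low sugar, and stood at 12495, 11139 and 13057 at 22 °C and 52711, 64645 and 46655 at 27 °C. Its lowest warm library was more than 3 times its highest cool library, and the mean rose 4.44-fold (log2 difference 2.15, SE 0.15, limma adjusted p = 1.9e-09). DIN10, a raffinose synthase-like gene induced by darkness, had 23185, 21608 and 21390 at 22 °C and 75125, 78507 and 76520 at 27 °C (log2 difference 1.80, SE 0.12, limma adjusted p = 1.8e-09). DIN4, a subunit of the branched-chain keto acid dehydrogenase that degrades leucine, isoleucine and valine, had 2479, 2394 and 2678 at 22 °C and 7322, 8334 and 7340 at 27 °C (log2 difference 1.61, SE 0.08, limma adjusted p = 7e-11). Genes of later steps of leucine breakdown rose too. MCCA, of the 3-methylcrotonyl-CoA carboxylase, rose by log2 1.56 (adjusted p = 3.5e-10), IVD, the isovaleryl-CoA dehydrogenase, by 1.28 (adjusted p = 2.5e-09), and ETFQO, which passes their electrons to the respiratory chain, by 1.44 (adjusted p = 4.4e-10), all from limma. The groups of all 18 genes were without overlap. Summed over the list the level was 130534 to 134976 normalised counts at 22 °C and 337052 to 390980 at 27 °C.

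Genes that turn seed oil into sugar through β-oxidation, the glyoxylate cycle and gluconeogenesis were higher in 17 of 20 cases and lower in 0 (1 without pif4-2 22 °C replicate 3), with a smaller median of 0.43. PPDK, which makes phosphoenolpyruvate from pyruvate, stood at 6021, 6042 and 6052 at 22 °C and 15610, 16172 and 13842 at 27 °C (log2 difference 1.33, SE 0.11, limma adjusted p = 2.3e-08). MLS, the malate synthase of the glyoxylate cycle, had 726, 644 and 705 at 22 °C and 1324, 1269 and 1200 at 27 °C (log2 difference 0.87, SE 0.08, limma adjusted p = 4.6e-08). For both genes every warm value was above every cool value. PED1, a peroxisomal thiolase, ACX4, a short-chain acyl-CoA oxidase, and CSY2, a peroxisomal citrate synthase, rose by log2 0.85, 0.81 and 0.73. PMDH2, a peroxisomal malate dehydrogenase, was not called at log2 -0.13, except with only the compared groups in the fit (adjusted p = 0.049, limma) and without pif4-2 22 °C replicate 3 (adjusted p = 0.021).

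Starch genes gave no common direction, with 4 of 14 tested members higher, 5 lower and a median of -0.01. Without warm replicate 1 the count of lower genes was 3. GBSS1, which makes the amylose part of starch, had 6127, 6477 and 6125 at 22 °C and 1012, 1029 and 734 at 27 °C (log2 difference -2.77, SE 0.12, limma adjusted p = 1.5e-11). CT-BMY, a chloroplast β-amylase also known as BAM3, had 10391, 10609 and 10933 at 22 °C and 5869, 3960 and 6544 at 27 °C (log2 difference -0.995, SE 0.17, limma adjusted p = 7.7e-05). Both fell with no overlap between the temperatures. AMY3, an α-amylase of the chloroplast, differed by log2 0.46 (adjusted p = 6.7e-05), SEX1, the glucan water dikinase that opens starch to breakdown, by 0.23 (adjusted p = 0.0035), and MEX1, the maltose exporter, by -0.79 (adjusted p = 4.3e-07), by limma. Of 14 tested senescence genes 7 were higher and 1 lower (median 0.44), with 4 higher without warm replicate 1. Some of them act in chlorophyll breakdown. PAO, the pheophorbide a oxygenase, stood at 2129, 1975 and 2212 at 22 °C and 4395, 4038 and 4522 at 27 °C (log2 difference 1.04, SE 0.06, limma adjusted p = 4.9e-10). PPH, the pheophytinase, and NYC1, a chlorophyll b reductase, rose by log2 0.91 and 0.74, whereas NOL, the partner of NYC1, was not called (log2 -0.03). SAG21, a gene of early senescence and stress, was called at log2 0.60 with adjusted p = 0.027 by limma and lost the call without hda9-1 22 °C replicate 1 (adjusted p = 0.11), hda9-1 27 °C replicate 1 (0.077) or hda9-1 27 °C replicate 3 (0.095).

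Genes of photosynthesis were mostly lower in the warm libraries, and no member of the 4 lists was called higher. Among 21 light-harvesting genes, whose products bind chlorophyll around the photosystems, 11 were lower (median -0.55). LHCB2.3 had the lowest adjusted p of the list, with 33054, 34295 and 31002 at 22 °C and 10671, 12471 and 7716 at 27 °C (log2 difference -1.70, SE 0.14, limma adjusted p = 2.6e-08). LHCB2.2 had 64784, 65651 and 67044 at 22 °C and 40083, 41598 and 41985 at 27 °C (log2 difference -0.68, SE 0.14, limma adjusted p = 0.00044). LHCA6, a minor antenna protein that links photosystem I to the NDH complex, fell by 0.93 on the log2 scale (adjusted p = 4.4e-05, limma). LHCA4 and LHCB1.5 were not called (log2 -0.00 and 0.13), and the LHCB1 genes lie in near-identical copies whose reads may be shared. Of 25 genes of the photosystems and electron transport 18 were lower (median -0.44). PSAH2, a photosystem I subunit, stood at 32336, 33674 and 32490 at 22 °C and 17629, 17215 and 17144 at 27 °C (log2 difference -0.92, SE 0.08, limma adjusted p = 5.2e-08). ATPD, the delta subunit of the chloroplast ATP synthase, had 35370, 30994 and 33728 at 22 °C and 19886, 16186 and 18945 at 27 °C (log2 difference -0.87, SE 0.10, limma adjusted p = 6.6e-07). Warm and cool values were apart for both. PSAK, another photosystem I subunit, fell by 0.76 on the log2 scale, and PSBO1, of the oxygen-evolving complex, was not called (log2 -0.20), though DESeq2 called it (adjusted p = 0.036), as did limma with only the compared groups in the fit (0.016) or without pif4-2 22 °C replicate 3 (adjusted p = 0.0044).

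The enzymes that fix carbon and the ones that make chlorophyll followed the same direction. In the Calvin cycle 14 of 17 genes were lower (median -0.55). RBCS1B, a small subunit of Rubisco, stood at 48199, 47972 and 45168 at 22 °C and 24022, 18285 and 22392 at 27 °C and fell (log2 difference -1.14, SE 0.14, limma adjusted p = 1.9e-06). Its sequence is close to that of RBCS2B and RBCS3B, so these values carry that uncertainty. SBPASE, the sedoheptulose-bisphosphatase that helps to regenerate the CO2 acceptor, had 34543, 34465 and 35310 at 22 °C and 18591, 17642 and 18660 at 27 °C (log2 difference -0.93, SE 0.06, limma adjusted p = 5.8e-10), and its 3 warm values were all below the cool ones. PRK, the phosphoribulokinase, fell by 0.48 on the log2 scale, and FBA1, an aldolase, was not called (log2 -0.19), except with only the compared groups in the fit (adjusted p = 0.013, limma) and without pif4-2 22 °C replicate 3 (adjusted p = 0.0067). In chlorophyll synthesis 16 of 18 genes were lower (median -0.54). GSA2, which makes the precursor 5-aminolevulinic acid, stood at 7222, 6694 and 6609 at 22 °C and 3115, 2723 and 2774 at 27 °C (log2 difference -1.25, SE 0.11, limma adjusted p = 4.6e-08). CHLI1, a subunit of the magnesium chelatase, and CAO, which makes chlorophyll b, fell by 0.87 and 0.83 on the log2 scale. PORC, a light-dependent protochlorophyllide oxidoreductase, stood at 5008, 4860 and 4878 at 22 °C and 2551, 2446 and 2470 at 27 °C (log2 difference -0.98, SE 0.06, limma adjusted p = 5.2e-10). Warm and cool libraries were separate for each of these 4 genes. The sister gene PORB and the methyltransferase gene CHLM were not called (log2 -0.14 and -0.03).

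Genes of dividing cells fell together. All 16 listed genes were lower, none higher, with a median of -1.46. CYCB1;2, a cyclin made at the entry into mitosis, stood at 805, 729 and 722 at 22 °C and 165, 201 and 208 at 27 °C. The warm libraries were all far below the cool ones, a 3.93-fold fall (log2 difference -1.98, SE 0.11, limma adjusted p = 1.6e-10). CYCA1;1, a cyclin of S phase and mitosis, had 332, 327 and 358 at 22 °C and 88.5, 109 and 98.9 at 27 °C (log2 difference -1.78, SE 0.11, limma adjusted p = 6.7e-10). CYCB1;4 and CDC20.1, an activator of the anaphase-promoting complex, fell by 1.63 and 1.49 on the log2 scale. KN, the syntaxin that builds the new cell plate, stood at 1343, 1283 and 1244 at 22 °C and 418, 518 and 465 at 27 °C (log2 difference -1.47, SE 0.11, limma adjusted p = 4.4e-09). MCM2, part of the replicative helicase, fell by 1.02 on the log2 scale. The sum over the 16 genes was 7778 to 8487 normalised counts at 22 °C and 3533 to 3823 at 27 °C.

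The promoter of CYCB1;2 is shown as an example of a cell division gene with the core letters of the mitosis-specific activator element (CCAACGG on either strand), the binding sequence of MYB3R factors. The window is chr5:1861704-1861953 on the minus strand of TAIR10.1 (RefSeq), read 5′ to 3′, and capitals mark the 2 matches, which start 145 and 11 bases before the gene start.
CYCB1;2: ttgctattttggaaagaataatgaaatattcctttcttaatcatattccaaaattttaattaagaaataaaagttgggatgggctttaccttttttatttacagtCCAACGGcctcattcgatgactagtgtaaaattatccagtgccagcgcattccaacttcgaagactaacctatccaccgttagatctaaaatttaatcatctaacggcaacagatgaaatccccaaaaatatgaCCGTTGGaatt
These letters were in 365 of 20552 windows (1.78%), in 39 of 1245 windows of genes at least 2-fold lower (3.13%) and in 4 of the 16 windows of cell division genes (25%).

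Genes of the protein synthesis machinery were mostly lower by small steps. Of 82 genes that the annotation describes as cytosolic ribosomal proteins 74 were tested, 10 were higher and 43 lower, with a median of -0.40. The list was taken from the annotation after the files were seen, and many ribosomal genes have near-identical copies. AT3G55750, a ribosomal protein gene of the large subunit, stood at 2624, 2702 and 2431 at 22 °C and 1151, 1188 and 1234 at 27 °C (log2 difference -1.12, SE 0.09, limma adjusted p = 1.9e-08), and AT1G41880, from the same family, fell by 0.89 on the log2 scale. AT5G02440, annotated as a 60S ribosomal protein L36, had 1196, 1179 and 1105 at 22 °C and 499, 459 and 417 at 27 °C (log2 difference -1.34, SE 0.09, limma adjusted p = 1.2e-09). In all 3 genes the temperatures were apart. The telo-box (AAACCCTA), a sequence common in ribosomal promoters, was in 15 of 74 windows of this list (20.3%) and in 3.59% of all windows. The site II sequence (TGGGCC) was in 35 of 74 (47.3%) and in 16.3% of all.

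Cell wall genes split by family. Of 17 tested genes 4 were higher and 11 lower (median -0.75). The 4 rises were those of xyloglucan endotransglucosylases, which cut and rejoin wall xyloglucan. XTH23 stood at 183, 125 and 190 at 22 °C and 3590, 4231 and 6339 at 27 °C, the largest rise of any gene that met the naming rule. Every warm value was far above every cool value (log2 difference 4.80, SE 0.26, limma adjusted p = 1.5e-10). XTH24 had 6463, 5640 and 6946 at 22 °C and 48092, 45867 and 59954 at 27 °C (log2 difference 3.01, SE 0.16, limma adjusted p = 1.6e-10). XTH15, listed with the PIF targets, rose by log2 2.27 (adjusted p = 3.9e-07, limma). The expansins named here, which loosen walls without cutting them, fell. EXPA1 stood at 10615, 11064 and 9420 at 22 °C and 2447, 2287 and 2170 at 27 °C, with no overlap and a small spread (log2 difference -2.17, SE 0.07, limma adjusted p = 7.9e-13). EXPA10 and EXPA15 fell by 1.46 and 1.53 on the log2 scale. The summed level of the list was higher at 27 °C, with 53166 to 55312 normalised counts at 22 °C and 79680 to 97044 at 27 °C.

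Root hair genes fell without exception. All 11 were lower, with a median of -2.12. LRX1, a wall protein of growing root hairs, stood at 169, 161 and 107 at 22 °C and 45.4, 18.8 and 6.04 at 27 °C (log2 difference -2.94, SE 0.46, limma adjusted p = 2.7e-05). COBL9, needed for tip growth, had 121, 123 and 117 at 22 °C and 28.5, 18.8 and 12.1 at 27 °C (log2 difference -2.62, SE 0.31, limma adjusted p = 1.4e-06). EXPA7, an expansin of root hair cells, RSL2, a bHLH factor that sets hair length, and RHD2, an NADPH oxidase of the hair tip, fell by 2.12, 1.41 and 0.57 on the log2 scale. The groups were apart for these 5 genes, but the warm libraries spread widely, and replicate 3 was the lowest of them for LRX1. Summed over the list the libraries had 1238, 1153 and 1023 normalised counts at 22 °C and 620, 454 and 361 at 27 °C. Markers of other root tissues moved less, with 6 of 15 lower, 0 higher (1 to 2 without cool replicate 1 or pif4-2 22 °C replicate 3) and a median of -0.30. GPAT5, which makes suberin monomers, stood at 602, 608 and 744 at 22 °C and 212, 234 and 194 at 27 °C (log2 difference -1.60, SE 0.14, limma adjusted p = 3e-08), and HORST, another suberin gene, fell by 0.89 on the log2 scale. PYK10, a β-glucosidase very abundant in roots, fell by 0.55. SCR and CASP2, markers of the endodermis, were not called (log2 -0.15 and 0.06), though SCR was with the replicate block (adjusted p = 0.040, limma) and without pif4-2 22 °C replicate 3 (adjusted p = 0.048) or hda9-1 27 °C replicate 1 (0.017). The sum of this list was 80274 to 88033 at 22 °C and 56608 to 59902 at 27 °C. Whether the part of root in the samples differed between temperatures was not tested. In the list of shoot epidermis, vasculature and meristem 1 of 13 tested genes was higher (2 without warm replicate 2) and 4 were lower, with a median of 0.00. Its members by log2 difference include SPCH, the factor that starts the stomatal lineage (-1.71, adjusted p = 1.1e-07), GL1 and GL2, which form hairs of the leaf (-1.33 and -0.85, adjusted p = 0.0021 and 1.7e-07), APL and SUC2 of the phloem (0.57 and -0.00, adjusted p = 1.4e-06 and 0.99) and ML1 of the epidermis (0.03, adjusted p = 0.65), all by limma.

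**Figure D3:**
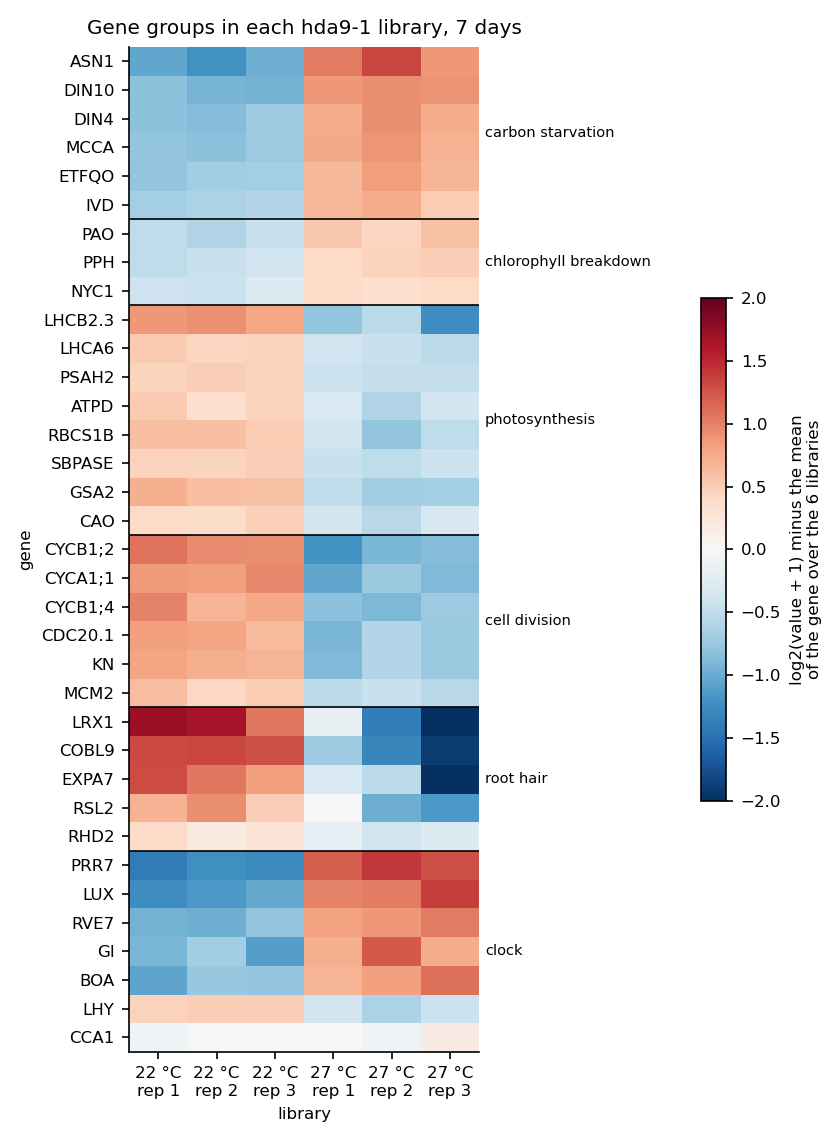
Heat map of genes named in the text (rows, by group) in each of the 6 hda9-1 libraries aged 7 days (columns). Colour gives log2(normalised count + 1) minus the mean of the gene over the 6 libraries, capped at 2 in either direction. Warm and cool libraries differ in colour for every gene but CCA1, and warm replicate 3 is the lowest library for LRX1, COBL9 and EXPA7.

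The circadian clock of plants is a loop of genes that peak at different times of day, and samples taken at dawn catch the morning genes near their peak. Of 27 clock genes 17 were higher and 4 lower (median 0.50). Several genes of the day and evening rose. PRR7, a repressor that peaks around midday, stood at 961, 1085 and 1049 at 22 °C and 5783, 6778 and 6191 at 27 °C. It rose 6.05-fold with no overlap (log2 difference 2.60, SE 0.12, limma adjusted p = 2.7e-11). LUX, the DNA-binding member of the evening complex, had 199, 211 and 232 at 22 °C and 937, 961 and 1226 at 27 °C (log2 difference 2.27, SE 0.12, limma adjusted p = 1.6e-10). BOA, a close relative of LUX, had 85.7, 105 and 104 at 22 °C and 287, 316 and 385 at 27 °C (log2 difference 1.73, SE 0.13, limma adjusted p = 8.1e-09). GI, a clock and flowering gene of the evening, and RVE7, a MYB-like gene, rose by log2 1.80 and 1.81. FKF1 and PRR3 of the same list reached the minimum in the warm libraries alone. The morning genes behaved differently from each other. LHY stood at 37190, 38164 and 37899 at 22 °C and 20849, 17479 and 20120 at 27 °C and fell (log2 difference -0.96, SE 0.08, limma adjusted p = 1.7e-08), while its partner CCA1 stood at 18341, 19205 and 19326 at 22 °C and 19563, 18307 and 21614 at 27 °C with overlapping groups (log2 difference 0.06, SE 0.08, limma adjusted p = 0.51). RVE4, an activator of evening genes, was not called (log2 0.00). With a single harvest time, a change of level and a shift of phase cannot be told apart.

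The promoters of LUX and BOA are shown because both genes rose and both windows hold the evening element (AAAATATCT on either strand), to which CCA1 and LHY bind. The windows are chr3:17182792-17183041 (LUX) and chr5:24003638-24003887 (BOA), both on the plus strand of TAIR10.1 (RefSeq), read 5′ to 3′, and capitals mark the element, which starts 53 and 43 bases before the gene start.
LUX: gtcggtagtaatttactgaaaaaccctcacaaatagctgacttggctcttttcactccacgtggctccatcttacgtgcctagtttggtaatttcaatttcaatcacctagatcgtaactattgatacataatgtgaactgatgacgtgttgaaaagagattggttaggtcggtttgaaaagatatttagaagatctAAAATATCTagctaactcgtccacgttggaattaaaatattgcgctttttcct
BOA: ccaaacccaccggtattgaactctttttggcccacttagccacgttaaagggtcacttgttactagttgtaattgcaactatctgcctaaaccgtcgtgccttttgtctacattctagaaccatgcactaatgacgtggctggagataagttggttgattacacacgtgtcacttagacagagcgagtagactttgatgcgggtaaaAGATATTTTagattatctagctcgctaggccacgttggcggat
The element was in 493 of 20552 windows (2.4%), in 40 of 869 windows of genes at least 2-fold higher (4.6%), in 27 of 1245 of genes at least 2-fold lower (2.17%) and in 6 of the 27 windows of clock genes (22.2%). The G-box (CACGTG), bound by PIF and other bHLH and bZIP factors, was in 9 of 27 clock windows (33.3%) and 7.36% of all. It was in 1 of 19 windows of PIF and shade targets (5.26%), 0 of 13 of auxin synthesis genes and 5 of 8 of seed maturation genes. All motifs were counted in all lists, and only part of these shares is given, chosen with results known. The I-box (GATAAG) was in 7 of 18 windows of carbon starvation genes (38.9%), in 158 of 869 of genes at least 2-fold higher and in 12.4% of all.

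Of 14 genes for PIF factors and photoreceptors 8 were higher and 1 lower (median 0.52). PHYA, the far-red light receptor, stood at 14220, 15692 and 15815 at 22 °C and 25915, 31911 and 25962 at 27 °C (log2 difference 0.87, SE 0.09, limma adjusted p = 1.6e-07). UVR8, the UV-B receptor, and PIF5, a close relative of PIF4, rose by log2 0.65 and 0.61, and CRY1, the blue light receptor, was not called by limma (log2 0.08) but was by DESeq2 (adjusted p = 0.016). Among 15 genes around COP1 and HY5, which hold back and drive light responses, 4 were higher and 8 lower (median -0.24). BBX32, a B-box protein, had 110, 87.4 and 123 at 22 °C and 24.6, 14.5 and 25.7 at 27 °C (log2 difference -2.28, SE 0.24, limma adjusted p = 4.3e-07). COP1 fell by 0.47 on the log2 scale, and HY5 missed the threshold (log2 0.28, adjusted p = 0.056, limma), though it was called with the replicate block (0.038), by edgeR (0.032) and DESeq2 (0.023), and by limma with TMM scaling (0.045), with only the compared groups in the fit (0.036) or without pif4-2 22 °C replicate 3 (adjusted p = 0.039) or hda9-1 27 °C replicate 2 (0.02).

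Known targets of PIF factors and of shade were mixed, with 10 of 19 higher and 4 lower (median 0.33). ST2A, a sulfotransferase that inactivates hydroxyjasmonate, stood at 520, 524 and 664 at 22 °C and 1670, 2280 and 1409 at 27 °C (log2 difference 1.63, SE 0.16, limma adjusted p = 1.4e-07). CKX5, a cytokinin oxidase, rose by log2 1.34. KDR, a small helix-loop-helix protein that promotes growth, went the other way with 617, 627 and 604 at 22 °C and 236, 226 and 204 at 27 °C (log2 difference -1.47, SE 0.11, limma adjusted p = 9.5e-09). Of 32 tested auxin response genes 9 were higher and 6 lower with a median of 0.03, near that of all genes. IAA2 and IAA7, repressors of auxin response, rose by log2 0.94 and 0.64, and IAA8 of the same family fell by 0.96. In auxin synthesis 0 of 13 tested genes were higher and 5 lower (median -0.18), with 1 higher by edgeR, by DESeq2 and without pif4-2 22 °C replicate 3. TAA1, the first enzyme of the main route, had 880, 842 and 706 at 22 °C and 396, 443 and 461 at 27 °C (log2 difference -0.90, SE 0.19, limma adjusted p = 0.0005). YUC2, of the second step, and CYP79B2, which starts the indole glucosinolate branch, fell by 0.83 and 0.84 on the log2 scale. For these members the groups did not overlap. In WT 1 of the 13 auxin synthesis genes was higher and 8 were lower (median -0.65).

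Other hormone lists were uneven. In brassinosteroid genes 7 of 10 were higher and 2 lower (median 0.38), with 1 lower without cool replicate 3. CPD, a synthesis enzyme, had 16555, 16895 and 17888 at 22 °C and 32220, 33545 and 35165 at 27 °C (log2 difference 0.98, SE 0.14, limma adjusted p = 1e-05). BR6OX2 and DWF4, also of synthesis, rose by log2 0.76 and 0.52, and BES1, a factor that answers the hormone, fell by 0.60. Gibberellin genes were higher in 6 of 16 tested cases and lower in 3 (median 0.20), with the receptor gene GID1A at log2 0.93 and the synthesis gene GA3OX1 at -0.71, both called. Of 11 tested abscisic acid genes 3 were higher and 5 lower (median -0.16), with 1 higher without cool replicate 2 or warm replicate 1. ABI5, a bZIP factor of seeds and young seedlings, stood at 11.6, 10.6 and 29.2 at 22 °C and 50.8, 52.1 and 34.7 at 27 °C (log2 difference 1.49, SE 0.32, limma adjusted p = 0.00069). The synthesis genes NCED3 and ABA1 fell by 0.47 and 0.67 on the log2 scale. In the jasmonate list 2 of 15 tested genes were higher and 3 lower (median 0.06), with 4 higher by DESeq2 and 1 lower without cool replicate 1 or warm replicate 3. The repressor gene JAZ9 and the lipoxygenase gene LOX3 rose by log2 0.58 and 0.91. VSP1, a storage protein induced by jasmonate, had 21.4, 14.2 and 17.7 at 22 °C and 6.16, 4.34 and 8.3 at 27 °C, a log2 difference of -1.39. It reached the minimum only at 22 °C, so it had to differ and its values are a description.

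Cold and defence genes held some of the large falls. Of 12 tested cold genes 3 were higher and 6 lower (median -0.20). RD29A, a classical reporter of cold and drought, stood at 482, 425 and 596 at 22 °C and 114, 75.3 and 71.7 at 27 °C. Its level fell 5.78-fold (log2 difference -2.53, SE 0.21, limma adjusted p = 2.3e-08). KIN1, a small hydrophilic cold protein, had 185, 149 and 187 at 22 °C and 38.5, 28.9 and 18.9 at 27 °C (log2 difference -2.60, SE 0.27, limma adjusted p = 2.7e-07), and the dehydrin gene XERO2 fell by 1.23 on the log2 scale. Warm and cool libraries were apart for RD29A, KIN1 and XERO2. RD29B, the abscisic acid-responsive neighbour of RD29A, stood 2.46-fold higher, and COR47 was not called (log2 0.20), except with only the compared groups in the fit (adjusted p = 0.014, limma) and without pif4-2 22 °C replicate 3 (adjusted p = 0.012). Of 14 tested salicylic acid genes 4 were higher and 6 lower (median -0.38). ICS1, the main synthesis enzyme, stood at 687, 697 and 684 at 22 °C and 296, 303 and 283 at 27 °C (log2 difference -1.23, SE 0.07, limma adjusted p = 3.1e-10). PR5, a thaumatin-like defence protein, had 72.3, 53.1 and 75.2 at 22 °C and 2.31, 1.45 and 6.79 at 27 °C, with few reads in the warm libraries, and reached the minimum only at 22 °C, so it had to differ. CBP60G, an activator of ICS1, was at log2 0.88 (adjusted p = 0.00028, limma), the opposite sign.

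Secondary metabolism was mostly lower. In the flavonoid list 2 of 14 tested genes were higher and 9 lower (median -0.28), with 1 higher without cool replicate 2 or warm replicate 1 or 3. PAL1, which opens the phenylpropanoid pathway, had 5484, 5650 and 5768 at 22 °C and 2234, 2152 and 2136 at 27 °C (log2 difference -1.37, SE 0.08, limma adjusted p = 1.6e-10). FLS1, the flavonol synthase, fell by 1.46 on the log2 scale, and MYBL2, a repressor of the pathway, rose by 0.87. TT4, the chalcone synthase, was not called (log2 -0.16). Among aliphatic glucosinolate genes, which make defence compounds from methionine, 6 of 8 tested were lower and 0 higher (median -1.39). BAT5, a transporter of the pathway's keto acids, stood at 77.7, 82.7 and 61.4 at 22 °C and 12.3, 18.8 and 8.3 at 27 °C (log2 difference -2.46, SE 0.30, limma adjusted p = 1.7e-06). MYB28, the main regulator, and MAM3, of chain elongation, fell by 1.18 and 1.60 on the log2 scale, and SOT18, of the last core step, was not called (log2 0.13). The warm libraries were below the cool ones for the called members named here, MYBL2 excepted.

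Iron and flowering genes moved both ways, as did all genes tested, of which 28.1% were higher and 30.8% lower. Of 15 iron genes 4 were higher and 6 lower (median -0.18). FER1, an iron-storing ferritin, stood at 3822, 2909 and 4162 at 22 °C and 10470, 10611 and 13331 at 27 °C (log2 difference 1.67, SE 0.17, limma adjusted p = 2e-07). FRO2, the ferric reductase of root uptake, had 774, 587 and 563 at 22 °C and 217, 126 and 198 at 27 °C (log2 difference -1.85, SE 0.33, limma adjusted p = 0.0001), and NAS4, a nicotianamine synthase, fell by 2.38 on the log2 scale. All warm values were above the cool ones for FER1 and below them for FRO2 and NAS4. Of 19 tested flowering genes 4 were higher and 5 lower (median -0.06). FLC and SVP, which form a repressor complex of flowering, stood at 304, 324 and 306 at 22 °C and 536, 612 and 660 at 27 °C and at 1300, 1180 and 1357 at 22 °C and 2433, 2495 and 2869 at 27 °C. Both rose, by log2 0.95 and 1.02 (adjusted p = 2.5e-07 and 3.2e-07, limma), while their target SOC1, a promoter of flowering, fell by 0.81.

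Among the relatives of HDA9 and the genes around the histone variant H2A.Z, 10 of 17 tested genes were higher and 4 lower (median 0.18). HDA2, of the same enzyme superfamily, had 110, 100 and 107 at 22 °C and 227, 219 and 244 at 27 °C (log2 difference 1.11, SE 0.09, limma adjusted p = 1.9e-08), and HDA8 rose by log2 0.79. HTA11, a gene of H2A.Z itself, stood at 952, 872 and 860 at 22 °C and 447, 440 and 444 at 27 °C (log2 difference -1.01, SE 0.14, limma adjusted p = 7.9e-06), and HTA8, another H2A.Z gene, fell by 0.81 on the log2 scale. The 2 H2A.Z genes named here fell and the 2 deacetylase genes rose, each with separate groups.

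Genes of seed maturation rose unevenly between the warm libraries. Of 15 storage and oil body genes only 4 passed the minimum, 2 were higher and 0 lower. Of 12 maturation genes 8 passed, with 4 higher and 1 lower (median 0.92). Over these 12 tested genes warm replicate 2 was the highest warm library for 11 and warm replicate 3 the lowest for 10. The same share over all genes was not counted. Warm replicates 2 and 3 also lay at opposite ends of the second component over all genes tested (22.74 and -22.13). CRA1, a 12S cruciferin, is the plainest case, with 114, 4.72 and 14.6 at 22 °C and 20, 333 and 7.55 at 27 °C, and was not called (log2 difference 0.85, SE 1.08, limma adjusted p = 0.52). PAP85, a vicilin-like storage protein, had 26.8, 8.27 and 33 at 22 °C and 143, 161 and 146 at 27 °C (log2 difference 2.87, SE 0.36, limma adjusted p = 3.1e-06). DOG1, the dormancy gene, stood at 24.1, 15.35 and 27.6 at 22 °C and 141, 165 and 149 at 27 °C. All its warm values exceeded the cool ones (log2 difference 2.74, SE 0.25, limma adjusted p = 4.9e-08). RAB18, a dehydrin induced by abscisic acid, and PER1, a seed peroxiredoxin, rose by log2 1.83 and 1.60. The count of 2 storage and oil body genes became 1 without cool replicate 3, without warm replicate 1 or without warm replicate 2. The part of these differences between warm libraries in the result was not tested.

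The largest rises and falls among all called genes, in a list or not, were set by a fixed rule, the 10 of each sign with a mean of at least 50 normalised counts and no overlap. MYB120, a MYB factor known from pollen tubes, had 5.36, 4.72 and 2.3 at 22 °C and 97.7, 149 and 114 at 27 °C, a log2 difference of 4.60. MYB120, ARCK1 and AT1G53540 reached the minimum only in the warm libraries, so they had to differ and their values are a description. CYP71B19, a cytochrome P450, had 24.1, 10.6 and 29.9 at 22 °C and 433, 508 and 509 at 27 °C (log2 difference 4.53, SE 0.23, limma adjusted p = 7e-11). BCB, a blue copper-binding protein, rose by log2 4.01, and ARCK1, a receptor-like kinase of abscisic acid and osmotic stress, was at log2 3.78. BETA-TIP, a seed aquaporin of the vacuole membrane, had 32.1, 18.9 and 21.5 at 22 °C and 370, 404 and 232 at 27 °C (log2 difference 3.74, SE 0.33, limma adjusted p = 4e-08). THA1, a threonine aldolase, and AT2G15880, annotated as a leucine-rich repeat protein, rose by log2 3.46 and 3.52. XTH23, HSP17.4 and AT1G53540, given above, complete the 10 rises. Every one of the 10 had its 3 warm values above its 3 cool values, as the rule required.

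The largest fall was that of AT2G15020, a protein of unknown function, with 1009, 685 and 940 at 22 °C and 16.9, 10.1 and 14.3 at 27 °C. The warm libraries were all far below the cool ones (log2 difference -5.90, SE 0.29, limma adjusted p = 5.6e-11). THI2.2, a thionin, a small antimicrobial protein, had 1755, 2010 and 1838 at 22 °C and 86.2, 111 and 64.9 at 27 °C (log2 difference -4.43, SE 0.17, limma adjusted p = 7e-12). AT1G29720, annotated as a leucine-rich repeat kinase, had 125, 111 and 92.9 at 22 °C and 6.93, 5.79 and 7.55 at 27 °C, a log2 difference of -3.83, and reached the minimum only in the cool libraries, so it had to differ. AT1G66100, another thionin-type gene, fell by 3.52 on the log2 scale, and LTP6, a lipid transfer protein, by 3.41. PPT2, a phosphoenolpyruvate translocator of the plastid, stood at 356, 416 and 324 at 22 °C and 42.3, 31.8 and 36.2 at 27 °C (log2 difference -3.28, SE 0.18, limma adjusted p = 1.8e-10). AT2G27402, annotated as a plastid transcriptionally active protein, AT4G22513, of the lipid transfer type, and AT4G29030, a putative membrane lipoprotein, had log2 differences of -3.47, -3.172 and -3.169. EXT13, an extensin-type wall protein, had 156, 87.4 and 51.4 at 22 °C and 37.7, 5.79 and 3.02 at 27 °C, a fall of 3.14 with a wide spread among the warm libraries (SE 0.64, limma adjusted p = 0.00095).

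The same rise of temperature was compared with the other responses measured with separate libraries. Across the 20664 genes the log2 differences of hda9-1 at 7 days correlated with those of WT at 7 days at r = 0.891 (Spearman 0.876), with pif4-2 at 7 days at 0.911 (0.898) and with hda9-1 at 2 days at 0.559 (0.576). These are descriptions across genes, which are not independent replicates. The tests called 58% of the genes in WT, 60.8% in pif4-2 at 7 days and 65.7% in hda9-1 at 2 days. Of 9787 genes called in both hda9-1 and WT, 80.4% of the hda9-1 calls and 81.6% of the WT calls, 9730 moved in the same direction (99.4%). For pif4-2 it was 10106 of 10130. For hda9-1 at 2 days it was 7968 of 9109 (87.5%), which are 74.9% of the calls at 7 days and 67.1% of those at 2 days.

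The response of hda9-1 differed from that of WT, by a test of the difference itself, for 768 genes (3.72%). The difference was on the higher side in hda9-1 for 610 (2.95%) and on the lower side for 158 (0.765%). The count moved with the libraries used: without pif4-2 replicate 3 at 22 °C it was 1786, and without warm hda9-1 replicate 3 it was 332. Most of the 610 were genes that fell less. Of them 262 were lower at 27 °C in both genotypes and 125 were called lower in WT alone, whereas 42 rose in hda9-1 and fell in WT, 102 rose in hda9-1 alone and 79 rose in both. Of the 158 genes on the lower side 38 rose in both, 43 rose in WT alone, 43 fell in hda9-1 alone, 21 fell in both and 13 moved in opposite directions.

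Many photosynthesis genes fell less in hda9-1 than in WT. Of 25 genes of photosystems and electron transport 11 differed on the higher side, of 18 chlorophyll synthesis genes 10, of 17 Calvin cycle genes 5 and of 21 light-harvesting genes 1, with none on the lower side, against 2.95% of all genes. The medians of the response were -0.54 in hda9-1 and -1.15 in WT for chlorophyll synthesis, -0.55 and -0.94 for the Calvin cycle, -0.44 and -0.77 for the photosystems and -0.55 and -0.80 for light harvesting. The median difference was 0.38 for chlorophyll synthesis, 0.42 for the Calvin cycle, 0.38 for the photosystems and 0.24 for light harvesting. RBCS1B had the largest difference of the photosynthesis genes named here, so it is not typical. In WT it stood at 40110, 38923 and 38391 at 22 °C and 7014, 5087 and 6005 at 27 °C, so its mean warm level in hda9-1 was more than 3 times that in WT, and the responses differed by 1.57 (SE 0.20, limma adjusted p = 0.00077) on the log2 scale. SBPASE in WT had 38279, 38759 and 39154 at 22 °C and 15327, 13761 and 13831 at 27 °C, and the responses differed by 0.51 (SE 0.08, limma adjusted p = 0.0023). CAO differed by 0.71 (SE 0.11, limma adjusted p = 0.0019), PSAH2 by 0.70 (SE 0.12, limma adjusted p = 0.0036) and ATPD by 0.81 (SE 0.14, limma adjusted p = 0.0036). In pif4-2 the medians of the response were -0.55 for chlorophyll synthesis, -0.65 for the Calvin cycle, -0.47 for the photosystems and -0.09 for light harvesting. The response of hda9-1 differed from that of pif4-2 for 1 of 25 photosystem genes, on the higher side. It differed for 0 of 18 chlorophyll synthesis, 0 of 17 Calvin cycle and 0 of 21 light-harvesting genes. Of 14 starch genes 1 differed from WT, CT-BMY, the β-amylase above: WT had 7476, 8628 and 8546 at 22 °C and 1684, 1233 and 1819 at 27 °C, a difference of 1.401 (SE 0.24, limma adjusted p = 0.0039).

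**Figure D4:**
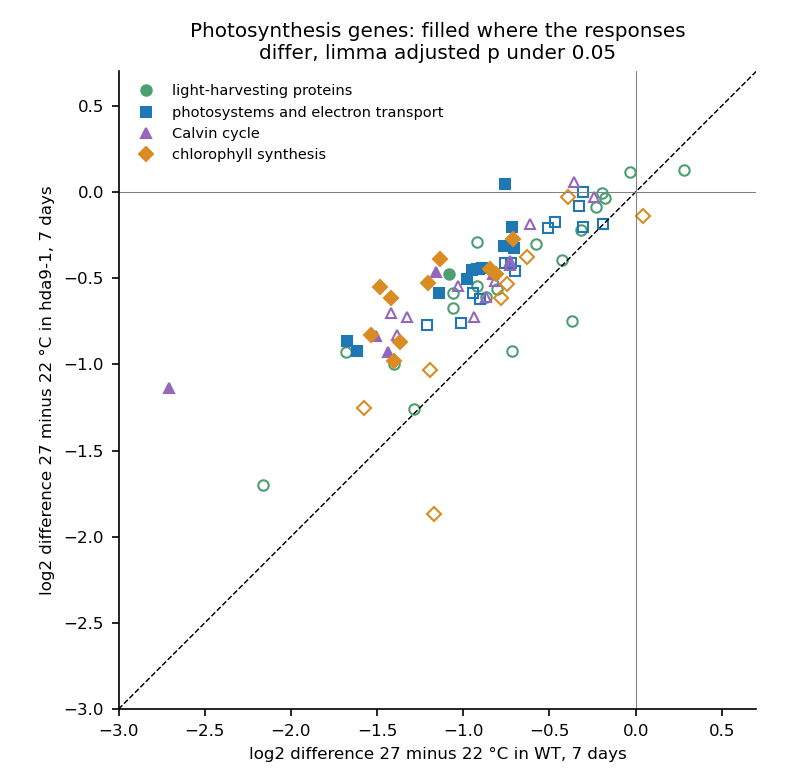
Log2 difference 27 minus 22 °C in WT (horizontal axis) and in hda9-1 (vertical axis) at 7 days for genes of light harvesting, photosystems, Calvin cycle and chlorophyll synthesis, 1 point per gene, with the line of equal response. Filled points differ between the genotypes (limma adjusted p under 0.05). Most points lie above the line, with list medians of -0.55 in hda9-1 and -0.94 in WT for the Calvin cycle.

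Other genes differed from WT in both directions. Of 17 cell wall genes 1 differed on the higher side, XTH23, and 4 on the lower side (XTH17, EXPA3, EXPA5 and EXPA8), with a median difference of -0.25. XTH23 rose more in hda9-1: WT stood at 308, 364 and 381 at 22 °C and 1410, 1723 and 1697 at 27 °C, below hda9-1 when warm and above it when cool, and the responses differed by 2.61 (SE 0.37, limma adjusted p = 0.0012). Of 6 small heat shock genes 1 differed on the higher side, of 19 chaperone genes 3, and of 16 heat shock factor genes 0. HSP17.6II and AT1G53540 had differences of 2.43 and 2.07, but both reached the minimum only in the warm hda9-1 libraries, so a larger rise in hda9-1 was favoured by that choice and these values are a description. HSP17.6II stood at 3.57, 4.72 and 6.14 at 22 °C and 46.9, 43.4 and 58.9 at 27 °C in hda9-1 and at 15, 30.2 and 41.7 at 22 °C and 50.5, 45.4 and 37.7 at 27 °C in WT, and AT1G53540 in WT at 24.6, 41.5 and 28.7 at 22 °C and 160, 160 and 153 at 27 °C, with the cool values of both genes lower in hda9-1 than in WT. HSP90.1 differed by 0.90 (SE 0.21, limma adjusted p = 0.023), a call that was lost without WT 22 °C replicate 3 (adjusted p = 0.064), hda9-1 22 °C replicate 1 (0.058), hda9-1 22 °C replicate 2 (0.062), WT 27 °C replicate 1 (0.057) or hda9-1 27 °C replicate 3 (0.076). Of 27 clock genes 6 differed on the higher side (LHY, CCA1, RVE8, LNK1, LNK2 and RVE4) and 0 on the lower. Between hda9-1 and pif4-2 0 of the 27 differed. The median response of the list was 0.50 in hda9-1, 0.34 in WT and 0.58 in pif4-2. CCA1 in WT stood at 13337, 14815 and 13620 at 22 °C and 8944, 8776 and 10480 at 27 °C, and the responses differed by 0.63 (SE 0.11, limma adjusted p = 0.0041). LHY differed by 0.60 (SE 0.11, limma adjusted p = 0.0059), and RVE4 by 0.35 (SE 0.10, limma adjusted p = 0.049). The call of RVE4 was lost without a filter (adjusted p = 0.071, limma) and on leaving out any 1 of 10 of the 12 libraries compared (adjusted p = 0.061 to 0.13). NAS2, a nicotianamine synthase, stood at 158, 149 and 150 at 22 °C and 20.8, 31.8 and 20.4 at 27 °C in hda9-1 and at 367, 230 and 296 at 22 °C and 12.3, 12.3 and 9.07 at 27 °C in WT, a difference of 1.97 (SE 0.36, limma adjusted p = 0.005). AT1G29720 had a difference of 2.75, a description too, since its warm hda9-1 values were all under the minimum. ACS7, an ethylene synthesis enzyme, and CYP82C4, a cytochrome P450 of iron-related coumarin synthesis, differed by 2.16 (SE 0.50, limma adjusted p = 0.022) and 2.59 (SE 0.55, limma adjusted p = 0.014). The call of ACS7 was lost without WT 22 °C replicate 2 (adjusted p = 0.059), hda9-1 22 °C replicate 2 (0.062), WT 27 °C replicate 1 (0.055) or hda9-1 27 °C replicate 3 (0.076), and that of CYP82C4 without hda9-1 27 °C replicate 3 (adjusted p = 0.051).

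On the lower side were 1 of 4 tested storage and oil body genes and 1 of 8 maturation genes, against 0.765% of all genes. OLEO2, an oleosin of seed oil bodies, stood at 11.6, 8.27 and 4.61 at 22 °C and 26.9, 43.4 and 8.3 at 27 °C in hda9-1 and at 2.73, 1.89 and 4.31 at 22 °C and 92.8, 90.7 and 95.6 at 27 °C in WT. The hda9-1 groups overlapped, the WT groups did not, and the responses differed by -3.23 (SE 0.66, limma adjusted p = 0.011). M10, a late embryogenesis gene, and AT1G54870, an NAD(P)-binding protein by annotation, differed by -1.84 (SE 0.46, limma adjusted p = 0.034) and -2.36 (SE 0.62, limma adjusted p = 0.04). The call of M10 was lost on leaving out any 1 of 8 of the 12 libraries compared (adjusted p = 0.062 to 0.11), and that of AT1G54870 on leaving out any 1 of 10 of the 12 libraries compared (adjusted p = 0.066 to 0.11), as well as without a filter (0.056) and by edgeR (0.063). OCT1, an organic cation and carnitine transporter, differed by -1.49 (SE 0.32, limma adjusted p = 0.015) and AT4G37850, a bHLH factor, by -1.47 (SE 0.39, limma adjusted p = 0.045), the first lost without hda9-1 27 °C replicate 3 (adjusted p = 0.053) and the second on leaving out any 1 of 10 of the 12 libraries compared (adjusted p = 0.051 to 0.12) and without a filter (0.064). AT1G02470, of a lipid transport family, and AT3G47040, a glycosyl hydrolase by annotation, differed by -1.47 (SE 0.26, limma adjusted p = 0.0042) and -1.44 (SE 0.25, limma adjusted p = 0.0042) and kept their calls under the alternatives tried.

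Against pif4-2 the response of hda9-1 differed for 74 genes (0.358%), 35 on the higher side (0.169%) and 39 on the lower (0.189%). The count was 18 to 247 when single libraries were left out, with 247 without pif4-2 replicate 3 at 22 °C, the library that stood apart. PIF4 read counts do not check the pif4-2 label, since an insertion allele can keep reads outside the insertion. NAS2 showed the largest difference on the higher side. In pif4-2 it stood at 239, 208 and 316 at 22 °C and 6.12, 3.96 and 9.43 at 27 °C, a difference of 2.51 (SE 0.36, limma adjusted p = 0.0033). ESM1, a protein that steers glucosinolate breakdown, stood at 7871, 9187 and 8120 at 22 °C and 8150, 8404 and 8305 at 27 °C in hda9-1, where the groups overlapped, and at 2916, 3452 and 3293 at 22 °C and 1333, 1408 and 976 at 27 °C in pif4-2, a difference of 1.38 (SE 0.15, limma adjusted p = 0.00076). CSLG3, a cellulose synthase-like gene, fell more in hda9-1, with a difference of -1.19 (SE 0.17, limma adjusted p = 0.0033). These 3 were the named genes that kept the call under every alternative. The other named genes lost it in at least 1 setting, beginning with the higher side. MAM1, a chain-elongation enzyme of glucosinolate synthesis, had a difference of 1.89, SE 0.34 and limma adjusted p = 0.022, lost without hda9-1 22 °C replicate 2 (adjusted p = 0.078), hda9-1 22 °C replicate 3 (0.06), pif4-2 27 °C replicate 3 (0.058) or hda9-1 27 °C replicate 3 (0.074). RLP6, a receptor-like protein, had a difference of 1.62, SE 0.27 and limma adjusted p = 0.015, lost without hda9-1 22 °C replicate 2 (adjusted p = 0.055) or hda9-1 27 °C replicate 3 (0.0501). HIPP21 had a difference of 1.37, SE 0.28 and limma adjusted p = 0.043, lost without a filter (0.064), with only the compared groups (0.13) and on leaving out any 1 of 9 of the 12 libraries compared (adjusted p = 0.056 to 0.13), and CRK18, a cysteine-rich receptor kinase, a difference of 1.25, SE 0.26 and limma adjusted p = 0.046, lost without a filter (0.065), with only the compared groups (0.13) and on leaving out any 1 of 9 of the 12 libraries compared (adjusted p = 0.056 to 0.15). On the lower side were AT2G15020 with a difference of -2.27, SE 0.41 and limma adjusted p = 0.022, lost without hda9-1 22 °C replicate 1 (adjusted p = 0.067), hda9-1 22 °C replicate 3 (0.064), pif4-2 27 °C replicate 1 (0.066), pif4-2 27 °C replicate 3 (0.058) or hda9-1 27 °C replicate 3 (0.059), and RTFL21 with a difference of -2.05, SE 0.35 and limma adjusted p = 0.018, lost with only the compared groups (0.099) and without hda9-1 22 °C replicate 3 (adjusted p = 0.056) or pif4-2 27 °C replicate 2 (0.051). MLP423 had a difference of -1.72, SE 0.31 and limma adjusted p = 0.026, lost with only the compared groups (0.092) and on leaving out any 1 of 7 of the 12 libraries compared (adjusted p = 0.056 to 0.082). AT4G07820, of the CAP family, had a difference of -1.63, SE 0.30 and limma adjusted p = 0.028, lost on leaving out any 1 of 6 of the 12 libraries compared (adjusted p = 0.052 to 0.086), and AT3G05600, an α/β-hydrolase by annotation, a difference of -1.19, SE 0.24 and limma adjusted p = 0.043, lost without a filter (0.059), by edgeR (0.058), with only the compared groups (0.092) and on leaving out any 1 of 10 of the 12 libraries compared (adjusted p = 0.059 to 0.13). IAA29, the PIF4-linked auxin gene, rose more in pif4-2, which had 129, 155 and 131 at 22 °C and 295, 252 and 316 at 27 °C, and the responses differed by -0.76 (SE 0.14, limma adjusted p = 0.028). That call was lost with only the compared groups (0.094) and on leaving out any 1 of 7 of the 12 libraries compared (adjusted p = 0.063 to 0.092).

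More genes differed in response between the ages than between the genotypes. The response of hda9-1 at 7 days differed from that at 2 days for 8019 genes (38.8%), 3955 on the higher side at 7 days (19.1%) and 4064 on the lower side (19.7%). The photosynthesis lists differed among themselves. Of 25 genes of the photosystems 20, of 21 light-harvesting genes 16 and of 17 Calvin cycle genes 10 differed downwards, with 1 Calvin cycle gene upwards, whereas of 18 chlorophyll synthesis genes 5 differed downwards and 4 upwards, with 12 of the 18 already lower at 2 days. The medians of the photosystem and light-harvesting lists were -0.44 and -0.55 at 7 days and 0.23 and 0.47 at 2 days. LHCB2.3 at 2 days stood at 27756, 38176 and 37313 at 22 °C and 41982, 45515 and 52704 at 27 °C, and the responses differed by -2.15 (SE 0.32, limma adjusted p = 5.4e-06). RBCS2B, another Rubisco small subunit, differed by -1.56 (SE 0.12, limma adjusted p = 8.3e-11). Chaperones lay on the other side: 12 of 19 differed upwards and none downwards, with medians of 0.41 at 7 days and -0.18 at 2 days. HSP90.1 at 2 days stood at 1173, 859 and 1018 at 22 °C and 2304, 2488 and 2871 at 27 °C, a smaller rise, and the difference was 1.68 (SE 0.19, limma adjusted p = 1e-07). Of 16 heat shock factor genes 3 differed upwards and 2 downwards, with a median difference of -0.03. HSFA2 at 2 days had 81.9, 47.1 and 61.1 at 22 °C and 56.9, 67.2 and 56 at 27 °C, with overlapping groups, and the difference was 1.90 (SE 0.32, limma adjusted p = 2.6e-05). ROF2 differed by 1.61 (SE 0.17, limma adjusted p = 4.9e-08).

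Several growth and stress genes changed their response with age. XTH23 at 2 days had 562, 691 and 751 at 22 °C and 1122, 1196 and 1501 at 27 °C, a smaller rise than at 7 days, with a difference of 3.87 (SE 0.32, limma adjusted p = 5.4e-10). CYCB1;2 fell at both ages and more at 7 days, with a difference of -0.82 (SE 0.15, limma adjusted p = 9.6e-05), and EXPA1 differed by -1.44 (SE 0.12, limma adjusted p = 4.3e-10). The ribosomal protein list fell less at 7 days, by its medians of -0.40 at 7 days and -0.74 at 2 days. Of its 74 genes 28 differed upwards, 4 downwards and 42 were not called, against 19.1% of all genes upwards and 19.7% downwards. GPAT5, KIN1, OCT1 and SLAH1, a chloride channel homologue, had log2 responses of 1.42, 0.73, 1.47 and 1.62 at 2 days and the opposite sign at 7 days, with differences of -3.02 (SE 0.84, limma adjusted p = 0.0055), -3.33 (SE 0.47, limma adjusted p = 3.2e-06), -4.18 (SE 0.33, limma adjusted p = 1.8e-10) and -4.18 (SE 0.60, limma adjusted p = 3.6e-06). GBSS1 differed by -2.30 (SE 0.20, limma adjusted p = 1.4e-09) and PAO by 1.27 (SE 0.09, limma adjusted p = 2.6e-11). Further large differences on the higher side were those of AT5G39580, a peroxidase, at 3.61 (SE 0.31, limma adjusted p = 7.2e-10), CYP71B19 at 3.47 (SE 0.29, limma adjusted p = 4.7e-10), GLYI7, a glyoxalase, at 3.34 (SE 0.44, limma adjusted p = 1e-06), AT2G16660, of the major facilitator family, at 3.56 (SE 0.27, limma adjusted p = 1.3e-10) and ACS7 at 3.18 (SE 0.44, limma adjusted p = 1.9e-06). On the lower side were PELPK2 at -4.37 (SE 0.91, limma adjusted p = 0.00036), AT1G66100 at -4.22 (SE 0.77, limma adjusted p = 8e-05) and MRN1, an enzyme of the triterpene marneral, at -4.43 (SE 0.80, limma adjusted p = 7.9e-05). AT2G15020 had almost no reads at 2 days, 0.845, 0 and 0 at 22 °C and 0, 0 and 0 at 27 °C, so no response could be measured there, and its fitted difference of -5.61 (SE 0.50, limma adjusted p = 1.7e-09) was not called by edgeR.

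**Figure D5:**
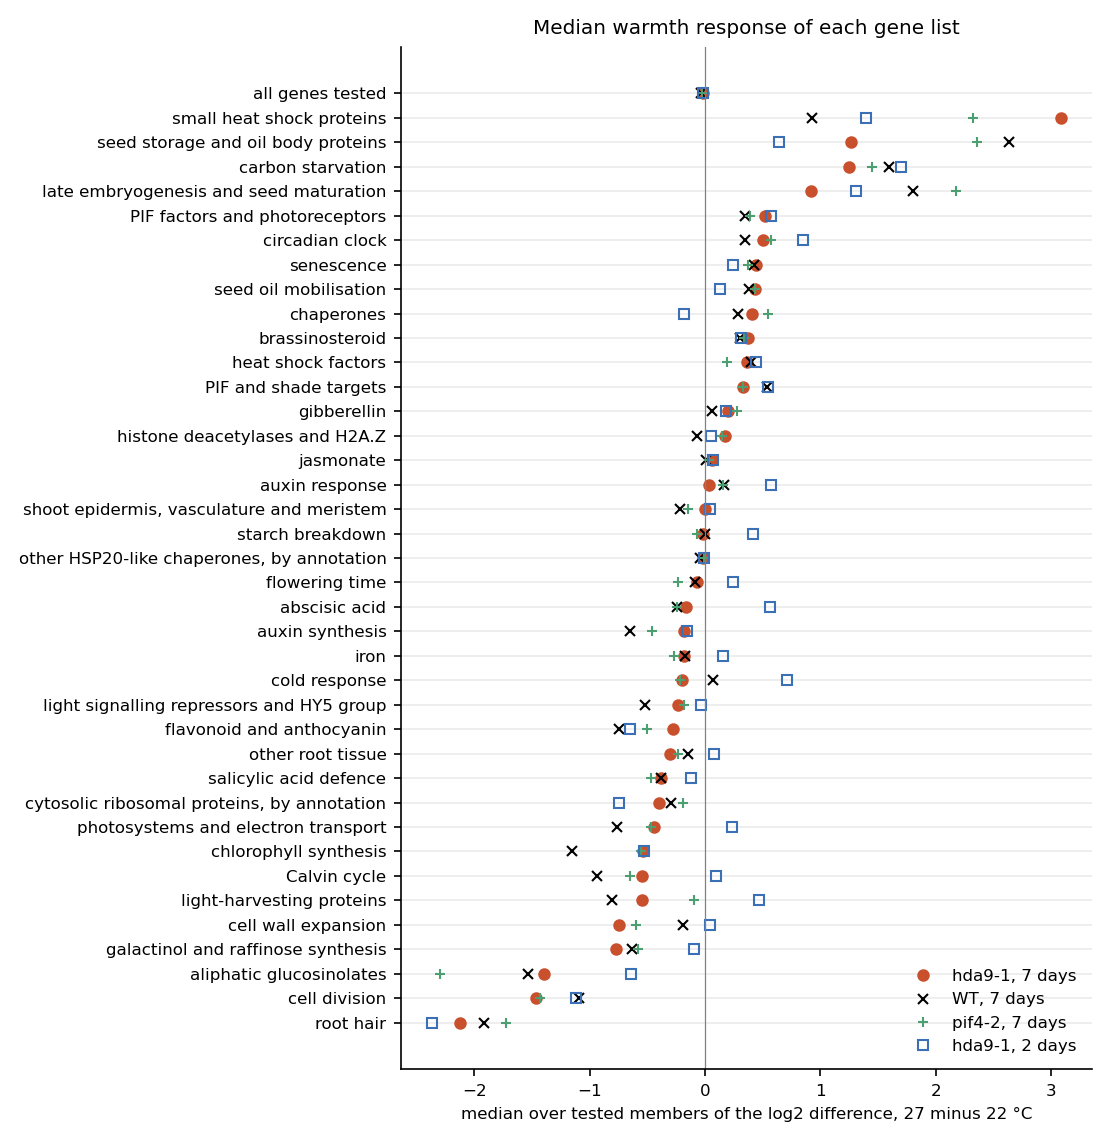
Median log2 difference 27 minus 22 °C of each gene list in hda9-1 at 7 days, WT at 7 days, pif4-2 at 7 days and hda9-1 at 2 days, with 1 marker per response. The light-harvesting list is at -0.55 in hda9-1 at 7 days and at 0.47 at 2 days, while the cell division list is below 0 in all of them.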

How the data were processed

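RNA was sequenced with the Illumina TruSeq kit as single reads of 50 bp, per the labels, which do not state the strand setting, so overlapping genes may share reads. Tools named in the submitters' processing notes are TopHat2 and Bowtie, HTSeq, DESeq and FastQC, with build TAIR10. The deposited signal values are read counts that the authors divided by 1 size factor per library. Whole reads were recovered for 100% of values within 0.01, and counting categories (6.34 to 6.92% not uniquely placed, 1.03 to 1.13% ambiguous, 0.704 to 0.831% outside genes in these 6 libraries) were left out. The 18 libraries aged 7 days, in 6 groups of 3, were fitted together with limma 3.58.1 (limma-trend, R 4.3.3) on log2(value + 1), with p adjusted by Benjamini-Hochberg over 20664 genes. The age difference used all 36 libraries. The fit was also run on simulated counts in which far fewer genes changed than here, so that run does not check these results.

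The members and lists were chosen with earlier results of these data known. There were 36 lists by hand (615 of 635 entries matched the annotation by name and locus) and 2 from the annotation. Named genes followed a rule: PIF4, HDA9, YUC8, IAA19 and IAA29, the 10 largest rises and falls, the 6 highest and lowest differences of responses, and up to 6 called and 3 uncalled members per list; the text gives part of these, chosen with results known, and FKF1 and PRR3 are named for the minimum they passed. Same-numbered hda9-1 libraries aged 7 days deviated together (correlations 0.1536, 0.1406 and 0.2341). Under the rule used, every same-numbered pair above 0.1, the numbers pair them. The labels do not say so, the rule did not hold in the other groups, and the main fit did not use the pairing. P-values measure the spread between libraries, each a pool of 3 batches. Promoter windows hold the 250 bases before the start of each gene in RefSeq's TAIR10.1, for 20552 of the tested genes. Alternatives were a pseudocount of 8, no filter, the replicate block, TMM scaling, edgeR 4.0.16 and DESeq2 1.42.0 on recovered reads, only the compared groups, and each library left out.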

Additional observations from a re-analysis of the deposited data

Results flagged for a closer look

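Each result here was picked out because a test of the difference itself separated 2 responses to warmth. The difference, in log2 units, is the response of hda9-1 at 7 days minus the other response, by limma with p adjusted over all genes. Against WT it was called for 768 genes, against pif4-2 for 74 and against hda9-1 at 2 days for 8019.

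Against WT named genes of photosynthesis fell less in hda9-1, as did the starch gene CT-BMY, the 1 of 14 starch genes that differed. The differences were 1.57 for RBCS1B, 0.51 for SBPASE, 0.71 for CAO, 0.70 for PSAH2, 0.81 for ATPD and 1.401 for CT-BMY. The difference was 2.61 for XTH23, the 1 cell wall gene on the higher side against 4 on the lower, and 0.90 for HSP90.1, which lost the call without any 1 of 5 libraries. It was 2.07 for AT1G53540 and 2.43 for HSP17.6II, which reached the minimum only in the warm hda9-1 libraries. Clock genes differed by 0.63 for CCA1, 0.60 for LHY and 0.35 for RVE4. Further differences on the higher side were 2.16 for ACS7, 1.97 for NAS2, 2.59 for CYP82C4 and 2.75 for AT1G29720, whose warm hda9-1 values were all under the minimum. On the lower side they were -3.23 for OLEO2, -2.36 for AT1G54870, -1.84 for M10, -1.49 for OCT1, -1.47 for AT1G02470, -1.44 for AT3G47040 and -1.47 for AT4G37850.

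Against pif4-2 the differences were 2.51 for NAS2, 1.89 for MAM1, 1.62 for RLP6, 1.38 for ESM1, 1.37 for HIPP21 and 1.25 for CRK18 on the higher side. On the lower side they were -2.27 for AT2G15020, -2.05 for RTFL21, -1.72 for MLP423, -1.63 for AT4G07820, -1.19 for CSLG3, -1.19 for AT3G05600 and -0.76 for IAA29.

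Between the ages the heat genes differed by 1.68 for HSP90.1, 1.61 for ROF2 and 1.90 for HSFA2, and PAO by 1.27. The largest differences on the higher side at 7 days were 3.87 for XTH23, 3.61 for AT5G39580, 3.47 for CYP71B19, 3.34 for GLYI7, 3.18 for ACS7 and 3.56 for AT2G16660. AT2G15020 had a fitted difference of -5.61, but with almost no reads at 2 days no response could be measured there, and edgeR did not call it (adjusted p = 0.93). On the lower side were also -4.18 for OCT1, -4.43 for MRN1, -4.37 for PELPK2, -4.18 for SLAH1 and -4.22 for AT1G66100. List members on the lower side were LHCB2.3 at -2.15, RBCS2B at -1.56, GBSS1 at -2.30, GPAT5 at -3.02, KIN1 at -3.33, CYCB1;2 at -0.82 and EXPA1 at -1.44.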

How the results depend on the processing

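The count of genes called in hda9-1 at 7 days stayed within 1.5 times of 12166 under every alternative run, with 10950 to 13537 (5213 to 6540 higher, 5730 to 6997 lower) when single libraries were left out. The difference from WT was less stable. It ran from 332 to 1786 genes (271 to 1290 higher, 61 to 496 lower) on leaving out a library, and was 1164 with DESeq2 (281 lower) and 1508 with only the compared groups in the fit (1133 higher, 375 lower). The difference from pif4-2 ran from 18 to 247 (9 to 128 higher, 8 to 119 lower), and was 342 with DESeq2 (175 higher, 167 lower) and 24 with only the compared groups (13 higher, 11 lower). The age difference ran from 6625 to 8998 (3255 to 4498 higher, 3370 to 4500 lower). The causes were not tested.

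By the rule that every same-numbered pair correlates above 0.1, replicate numbers pair the hda9-1 libraries at 7 days. The labels do not state this pairing, and the main fit did not use it. In the other groups not every same-numbered pair correlated above 0.1 (WT 0.02393, 0.06619 and 0.2112, pif4-2 0.05199, 0.143 and 0.05886, hda9-1 at 2 days 0.2078, -0.009592 and 0.221), which leaves those libraries with a number in common and no more. With the replicate number as a block 12370 genes were called in hda9-1, 926 differed from WT, 104 from pif4-2 (67 higher, 37 lower) and 9103 between the ages. Among the named genes the block added SCR (adjusted p = 0.040, limma) and HY5 (0.038) to the calls in hda9-1, and ended the differences of AT1G54870 (0.054) and RVE4 (0.095) from WT and of IAA29 (0.057) from pif4-2. It changed no other call of a named gene.

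Of 185 genes named for hda9-1, 173 kept their call and direction under every alternative and 0 reversed. HDA9, IAA29 and SAG21 lost a call, and YUC8, HSP90.5, PMDH2, PSBO1, FBA1, SCR, COR47, CRY1 and HY5 gained one. Of 1064 list counts under alternatives 1025 stayed within 1.5 times and 39 moved, over 17 of the counts. Higher counts that moved were those of abscisic acid, auxin synthesis, flavonoid, jasmonate, other root, seed storage, senescence and shoot genes. Lower counts that moved were those of brassinosteroid, galactinol, heat shock factor, jasmonate, other HSP20-like, starch and seed oil genes, and those of flavonoid (14 for 9) and senescence genes (2 for 1) without a filter. Each library left out leaves 2 in its group.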
